A study of Homo sapiens with 18 samples.

Results

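Metallothioneins are small, cysteine-rich proteins that bind zinc, copper and cadmium. 6 of their genes were followed here, MT1E, MT1F, MT1G, MT1M, MT1X and MT2A, taken from the 40916 gene symbols of the count tables by exact match of the symbol. 4 of the 6, MT2A, MT1E, MT1X and MT1F, reached 10 counts in at least 1 library and were tested in every comparison. MT1G and MT1M were almost without counts and were tested in none. The measurements are counts per gene from poly(A)-selected, stranded, paired-end RNA sequencing of cultured human cells.

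The 18 libraries form 6 groups of 3, which the series describes as biological replicates. MCF10A, an immortalized, non-tumorigenic line of human breast epithelium, expressed histone H2B fused to GFP. HCT116, a line from a human colorectal carcinoma, was unlabelled and p53-null. The third kind of culture held both lines, described as mixed in equal parts. Each kind was studied without irradiation (NIR) and after 10 Gy of ionizing radiation (IR). RNA was harvested at day 2 according to the sample titles and at 72 h after irradiation according to the series text. MCF10A was grown with horse serum, EGF, hydrocortisone (a glucocorticoid), cholera toxin and insulin, and HCT116 in McCoy's 5A with fetal bovine serum. Which medium the mixed cultures received, and whether the HCT116 cells were 1 clone, is not given in the sources used here.

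In most cells metallothionein transcripts are induced by zinc, cadmium or copper through MTF1, a zinc-sensing transcription factor that binds short metal response elements in the promoters. The same factor induces SLC30A1, which exports zinc from the cell. Glucocorticoids and oxidative stress also raise metallothionein transcripts, MT2A among them. The proteins buffer free zinc, sequester toxic metals and react with oxidants. MT2A is the isoform expressed most widely in human tissues, and the MT1 genes encode close relatives of it.

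All 6 genes lie in 1 cluster of 76.0 kb on chromosome 16 in the GENCODE v29 annotation of GRCh38, the build that the submitters' processing notes name. MT2A (56608199 to 56609497), MT1E (56625475 to 56627112), MT1M (56632233 to 56633986), MT1F (56657694 to 56660698) and MT1X (56682424 to 56684196) lie on the plus strand. MT1G (56666731 to 56668065) lies on the minus strand between MT1F and MT1X. Each is annotated as protein-coding, with 3 exons in its principal transcript.

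RefSeq promoter windows (GRCh38.p14) running from 250 bases before to 50 bases after the annotated start were found for 2 of the 6 genes, MT2A and MT1X. They are shown because they are the promoters at the top and near the bottom of the range of levels described below, and because metal response elements are the best known control sequences of the family. Capitals mark each copy of the core of that element, TGCACNC or TGCGCNC, on either strand. The MT2A window is chr16:56608334-56608633 and the MT1X window is chr16:56682220-56682519, both printed 5′ to 3′ on the plus strand. RefSeq and GENCODE v29 place the start of MT2A differently: the whole MT2A window lies inside the GENCODE gene, which begins at 56608199.
MT2A: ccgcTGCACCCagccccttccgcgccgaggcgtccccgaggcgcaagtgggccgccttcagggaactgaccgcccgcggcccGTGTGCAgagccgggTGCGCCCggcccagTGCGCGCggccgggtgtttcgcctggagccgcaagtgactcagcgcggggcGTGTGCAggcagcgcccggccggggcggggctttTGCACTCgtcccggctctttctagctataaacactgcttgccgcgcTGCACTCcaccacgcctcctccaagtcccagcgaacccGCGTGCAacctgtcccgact
MT1X: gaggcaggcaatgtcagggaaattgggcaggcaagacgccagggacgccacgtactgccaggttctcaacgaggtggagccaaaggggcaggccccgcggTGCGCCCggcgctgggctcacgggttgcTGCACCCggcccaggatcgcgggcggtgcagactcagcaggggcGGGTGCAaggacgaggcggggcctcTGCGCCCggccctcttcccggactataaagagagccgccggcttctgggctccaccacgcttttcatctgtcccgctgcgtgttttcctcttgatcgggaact
The MT2A window holds 8 cores, 5 on the printed strand and 3 on the other, and none overlaps another. The MT1X window holds 4, 3 on the printed strand and 1 on the other. Among 34796 different promoter windows of 300 bases, 29.5% hold at least 1 core, 0.598% hold 4 or more, and 0.0201% hold 8 or more. The SLC30A1 window holds 2, a number that 8.60% of the windows reach or exceed, and the MTF1 window holds 0. A match of letters is a description of the window, not evidence of binding.

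Depth ran from 25.7 M to 40.8 M counts per library (M, 1000000 counts). Levels are given as CPM, a gene's counts per M counts of its library. Of 10 basal mammary markers, the summed level was 14600 to 15737 CPM in the MCF10A NIR libraries and 566 to 635 CPM in the HCT116 NIR libraries, where TP63 and TGFBI had no count. 8 intestinal markers summed to 47.3 to 55.1 CPM in HCT116 NIR and to 16.2 to 19.6 CPM in MCF10A NIR. EPHB2 made up most of both sums, at 38.4 ± 3.53 CPM (SD, n = 3) in HCT116 NIR and 18.2 ± 1.78 CPM in MCF10A NIR. In HCT116 NIR, KRT20 stood at 1.13 ± 0.328 CPM, and VIL1, LGR5, CDH17 and GPA33 had means of 0.172 to 0.612 CPM. CDX2, an intestinal transcription factor, stood at 10.0 ± 1.14 CPM (SD, n = 3) in HCT116 NIR and had no count in MCF10A, while CDX1 had none in either line.

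MT2A was the most abundant member in all 18 libraries. In MCF10A NIR its level was 2341, 1957 and 1924 CPM in replicates 1 to 3, against 1364, 1291 and 1234 CPM in MCF10A IR. In HCT116 it was 146, 202 and 286 CPM in NIR and 344, 236 and 282 CPM in IR. In the mixed cultures it was 180, 209 and 218 CPM in NIR and 246, 230 and 230 CPM in IR. Both MCF10A groups stood apart from every other library, with the non-irradiated cells on top. The other 4 groups lay close together, and each overlapped its neighbour in the order HCT116 IR, mixed IR, HCT116 NIR, mixed NIR.

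MT1E, the second most abundant member, followed a different order. Its level was 291, 316 and 283 CPM in MCF10A NIR and 165, 164 and 142 CPM in MCF10A IR. In HCT116 it was 50.2, 69.8 and 103 CPM in NIR and 171, 142 and 150 CPM in IR. In the mixed cultures it was 73.1, 71.9 and 91.4 CPM in NIR and 120, 118 and 128 CPM in IR. MCF10A NIR was again the highest group, but irradiated MCF10A and irradiated HCT116 overlapped in second place. Irradiated mixed cultures came next, separate from both neighbours, and the NIR mixed and HCT116 groups overlapped at the bottom.

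MT1X and MT1F were much lower. MT1X stood at 13.1, 11.7 and 11.4 CPM in MCF10A NIR, and each of the other 15 libraries lay between 3.76 and 7.37 CPM. MT1F stood at 4.47, 5.13 and 4.85 CPM in MCF10A NIR and at 0.510, 0.722 and 1.44 CPM in the irradiated mixed cultures, the lowest group. For MT1X only the non-irradiated MCF10A libraries stood out, and for MT1F both MCF10A groups lay at the top, though MCF10A IR overlapped mixed NIR.

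**Figure D1:**
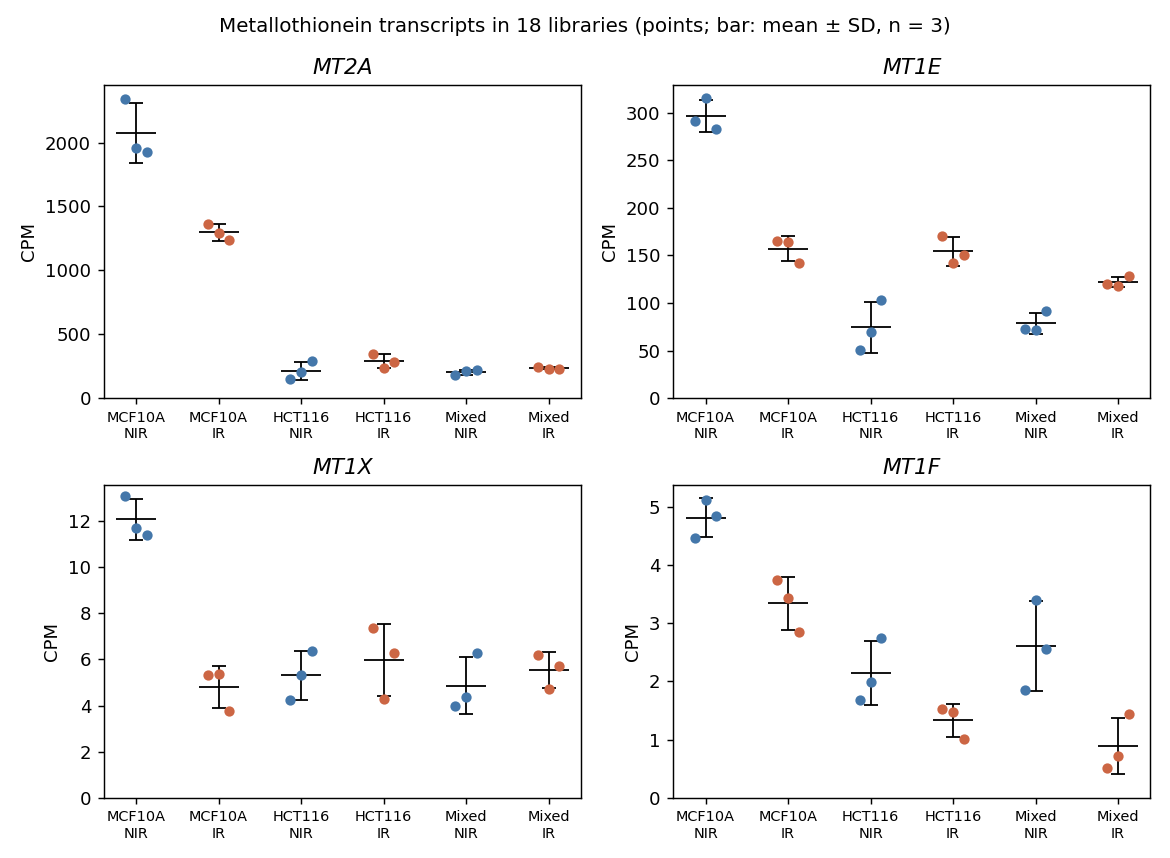
Level of MT2A, MT1E, MT1X and MT1F in CPM (vertical axes, linear, starting at 0 and scaled for each gene) in the 6 groups, blue for NIR and orange for IR; points are libraries and bars are mean ± SD of 3 libraries. In all 4 genes the MCF10A NIR libraries are the highest and MCF10A IR is lower, whereas in HCT116 and mixed cultures MT1E is higher after irradiation.

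Per kilobase of the principal transcript the order of the genes was the same. In MCF10A NIR, MT2A reached 2639 ± 295 CPM per kb (SD, n = 3), MT1E 422 ± 24.2, MT1X 26.8 ± 1.94 and MT1F 6.98 ± 0.479. In HCT116 NIR the same 4 genes stood at 269 ± 89.8, 106 ± 37.9, 11.8 ± 2.35 and 3.10 ± 0.800 CPM per kb. The distance between MT2A and MT1E was thus smaller in HCT116.

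MT1G had 2 counts in all, both in MCF10A NIR, and MT1M had 1 count, in a mixed NIR library. In each group without a count, 3 counts over its 3 libraries set an upper limit of 0.0275 to 0.0338 CPM, which covers counting error only. Of 16 further names of metallothionein genes and pseudogenes, 15 were listed. MT1A, MT1H, MT1L, MT1JP, MT1DP, MT1IP, MT3 and MT4 had no count in any library. MT1B and MT1HL1 had 2 counts each, MT1CP 3, MT1P3 15, MT1XP1 37, MT1P1 40 and MT2P1 76 over all 18 libraries, and MT2P1 held the highest single count, 22. MT2P1 stood at 0.152 ± 0.0849 CPM in MCF10A NIR and 0.521 ± 0.122 CPM in MCF10A IR, on 15 and 47 counts. Only 1 of these further names was tested in irradiated MCF10A, and it was called higher, with a log2 fold change of 1.74. The summed level of the 6 members was 2388 ± 230 CPM in MCF10A NIR and 293 ± 98.8 CPM in HCT116 NIR, and MT2A supplied 86.8% ± 1.46 and 72.1% ± 0.272 of it.

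The genes resemble each other, and how reads that fit several of them were treated is not given in the sources used here. Of the 150-base windows of the MT2A, MT1E and MT1F principal transcripts, none occurs in an annotated transcript of another gene. For MT1X 5.65% of such windows do, all in AC026461.1, and of its 75-base windows 31.6% are shared with MT1G, MT1XP1 or AC026461.1. The level of MT1X is therefore less certain than those of the other members.

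Irradiation of MCF10A was followed by lower levels of every member that could be tested. With edgeR's quasi-likelihood test and Benjamini-Hochberg adjustment over all 15154 tested genes, 4 of 4 members fell. Over all tested genes 29.2% were called lower and 26.2% higher. MT2A fell from 2074 ± 232 to 1296 ± 65.0 CPM (SD, n = 3), a log2 fold change of -0.70 (SE 0.05, edgeR adjusted p = 1.7e-12). MT1E fell from 297 ± 17.1 to 157 ± 13.2 CPM, by 0.94 on the log2 scale (SE 0.0535, edgeR adjusted p = 1.1e-14). MT1X fell most steeply, from 12.1 ± 0.875 to 4.82 ± 0.913 CPM, with a log2 fold change of -1.35 (SE 0.147, edgeR adjusted p = 7.3e-09). For all 4 members the NIR and IR libraries did not overlap. The share of all genes without such overlap was not counted, so this is a description only. MT1F stood at 4.82 ± 0.330 CPM in NIR and 3.34 ± 0.454 CPM in IR, a log2 fold change of -0.55 (SE 0.193, edgeR adjusted p = 0.016). That call was lost without NIR replicate 2 (adjusted p = 0.055), without IR replicate 3 (adjusted p = 0.079) and with all 18 libraries in 1 fit (adjusted p = 0.11). Of the 10 basal mammary markers 8 were called higher and none lower in the same comparison, their sum moving from 14600 to 15737 CPM up to 26928 to 27467 CPM, and their part in the result was not tested.

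Irradiation of HCT116 went the other way for the abundant members. Of 4 tested members 2 rose and none fell, beside 25.6% of all tested genes called higher and 27.0% called lower. MT1E rose from 74.3 ± 26.7 to 154 ± 15.0 CPM (SD, n = 3), a log2 fold change of 1.07 (SE 0.148, edgeR adjusted p = 2.4e-06), and its 3 IR libraries lay above all 3 NIR libraries. MT2A rose from 211 ± 70.6 to 287 ± 54.5 CPM, a log2 fold change of 0.45 (SE 0.151, edgeR adjusted p = 0.015), with overlapping libraries. The MT2A call rested on single libraries: it was lost without NIR replicate 1 (0.23, adjusted p = 0.085), NIR replicate 2 (0.41, adjusted p = 0.073) or IR replicate 1 (0.30, adjusted p = 0.14), and DESeq2 did not make it (adjusted p = 0.29). Without NIR replicate 3, in contrast, the log2 fold change was 0.74. MT1X had 5.31 ± 1.06 and 5.98 ± 1.57 CPM in NIR and IR, and a log2 fold change of 0.18 with a 95% interval of -0.22 to 0.58. MT1F had 2.14 ± 0.552 and 1.33 ± 0.282 CPM, a log2 fold change of -0.65 that was not called (edgeR adjusted p = 0.095) although the libraries did not overlap. The basal mammary markers also moved with irradiation in HCT116, with 7 of 8 tested called higher and their sum going from 566 to 635 CPM up to 1100 to 1307 CPM. ITGB4 made up most of that sum (477 ± 31.4 and 978 ± 87.4 CPM, log2 fold change 1.05). KRT5 (3.63), COL17A1 (2.89), KRT6A (2.77), KRT14 (1.69), LAMA3 (1.69) and LAMB3 (0.50) were called higher too, with KRT5 at 0.117 ± 0.152 and 1.54 ± 0.944 CPM and COL17A1 at 3.41 ± 0.682 and 25.3 ± 2.57 CPM. TP63 and TGFBI had too few counts to be tested, with no count in NIR and 0.0326 ± 0.0565 and 0.234 ± 0.0824 CPM in IR. The part of these markers in the result was not tested.

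The non-irradiated HCT116 libraries varied more for MT2A and MT1E, relative to the mean, than those of any other group. Replicate 1 was the lowest and replicate 3 the highest of the 3 libraries for MT2A, MT1E, MT1X and MT1F alike. All 4 genes thus had the same order of libraries there, and MT1E lay between 34.5% and 36.0% of the MT2A count. SLC30A1 did not share that order, with 53.6, 41.1 and 43.2 CPM in the same 3 libraries, nor did MTF1, with 44.9, 42.7 and 51.4 CPM. In mixed NIR, MT2A and MT1X also rose from replicate 1 to replicate 3. MT1E was highest there in replicate 3 and lowest in replicate 2, and MT1F was highest in replicate 2. In MCF10A NIR, replicate 3 was the lowest for MT2A, MT1E and MT1X, and replicate 1 for MT1F.

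The difference between the HCT116 and MCF10A responses was tested directly as an interaction of line and irradiation. Loss of p53 in the HCT116 cells, the medium and the GFP label go with the line and cannot be told apart from it. 3 of 4 members had a more positive response in HCT116 and none a more negative one, beside 15.4% and 21.9% of 18179 tested genes. The difference was 1.93 for MT1E (SE 0.195, edgeR adjusted p = 1.7e-08), 1.45 for MT1X (SE 0.273, edgeR adjusted p = 1.3e-04) and 1.07 for MT2A (SE 0.201, edgeR adjusted p = 1.3e-04), all in log2 units. Over all tested genes the median difference was -0.10. The balance of all genes depended on the setting: 2801 were called more positive and 3980 more negative, but 3575 and 3232 without mitochondrial and the 10 most abundant genes (median -0.01), 3525 and 3267 without a count filter, and 3565 and 3318 with all 18 libraries in 1 fit. Leaving out HCT116 IR replicate 2 or MCF10A IR replicate 1, 2 or 3 likewise gave more positive than negative calls. MT1F showed a difference of -0.17 with a 95% interval of -0.86 to 0.52. MT1E and MT2A were each called lower in irradiated MCF10A and higher in irradiated HCT116, a combination found in 5.43% of the 14091 genes tested in both lines. For MT2A the HCT116 call was the fragile one, absent with DESeq2 and in 3 of 6 fits that left out 1 library. For MT1X the difference came with a fall in MCF10A and no called change in HCT116.

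**Figure D2:**
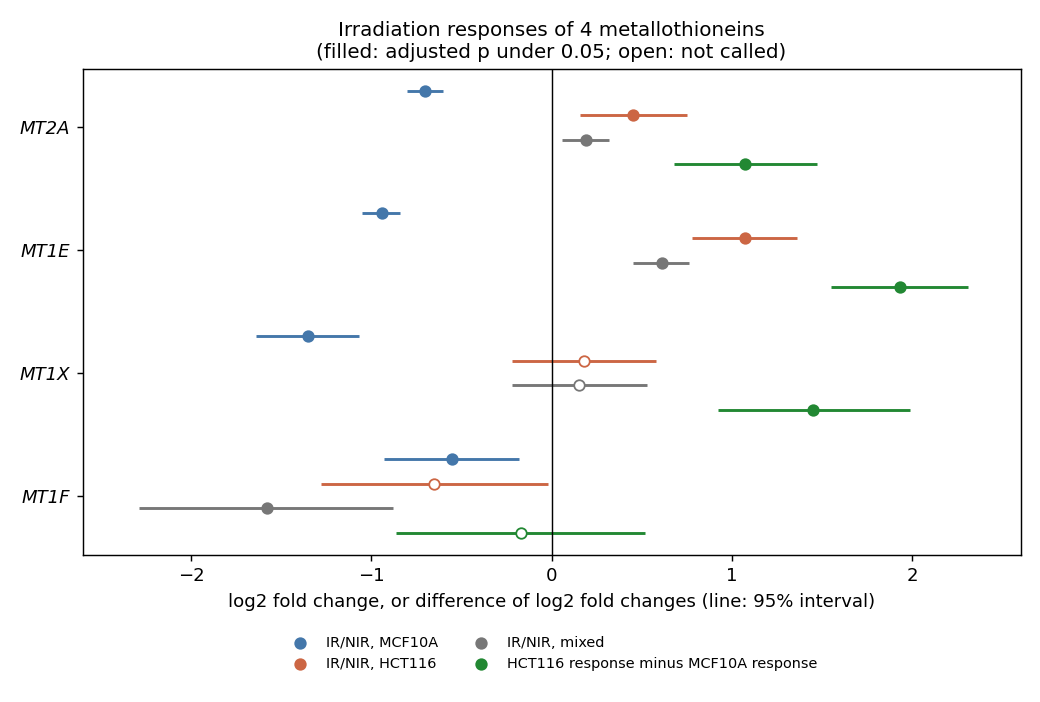
Log2 fold changes after irradiation (horizontal axis) in MCF10A (blue), HCT116 (orange) and mixed cultures (grey), and the HCT116 response minus the MCF10A response (green), for 4 genes; lines are 95% intervals, filled points have an adjusted p under 0.05 and open points do not. MT2A and MT1E lie left of 0 in MCF10A and right of 0 in HCT116 and mixed cultures, while MT1F lies left of 0 in all 3 kinds of culture.

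The balance of the main isoforms shifted with these changes. MT1E counts were 12.4%, 16.2% and 14.7% of the MT2A counts in the MCF10A NIR libraries and 12.1% ± 0.610 (SD, n = 3) in MCF10A IR, so these groups overlapped. In HCT116 the ratio went from 35.0% ± 0.876 in NIR to 54.4% ± 5.43 in IR, with libraries of 34.5% to 36.0% and 49.7% to 60.4%. In mixed cultures it went from 39.0% ± 3.97 to 51.9% ± 3.41, with libraries of 34.5% to 41.8% and 49.0% to 55.7%. In both kinds of culture with HCT116 cells the irradiated libraries lay above all non-irradiated ones, and every such library lay above every MCF10A library. The ratio of counts within a library does not depend on the library's scaling.

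**Figure D3:**
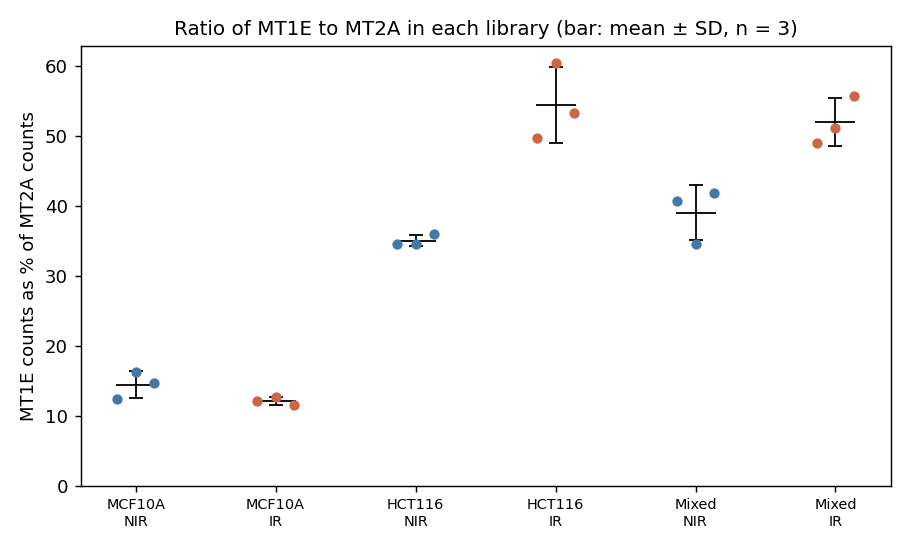
MT1E counts as a percentage of MT2A counts (vertical axis, from 0) in each library of the 6 groups, blue for NIR and orange for IR; bars are mean ± SD of 3 libraries. MCF10A libraries sit between 11.5% and 16.2%, HCT116 and mixed NIR libraries between 34.5% and 41.8%, and HCT116 and mixed IR libraries between 49.0% and 60.4%.

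Between the untreated lines, all 4 tested members were lower in HCT116 than in MCF10A and none was higher. Of 16568 tested genes 35.9% were called lower and 38.9% higher. The median log2 fold change of all tested genes was 0.05 with TMM scaling and 0.25 with library size alone, which is less than any member differed by. With library size alone, 62.1% of the called genes were higher, against 52.0% with TMM. MT2A differed most, by a log2 fold change of -3.49 (SE 0.166, edgeR adjusted p = 1.6e-12), or 11.22-fold, followed by MT1E with -2.19 (SE 0.161, edgeR adjusted p = 7.4e-10). MT1X and MT1F differed by -1.38 (SE 0.162, edgeR adjusted p = 4.6e-07) and -1.37 (SE 0.240, edgeR adjusted p = 5.3e-05). The libraries of the lines did not overlap for any of the 4, a description only, as the share of all genes without overlap was not counted. The 95% interval of MT2A (-3.81 to -3.16) lay apart from that of MT1E (-2.51 to -1.88).

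After irradiation the log2 difference between the lines was smaller for MT2A, MT1E and MT1X but not for MT1F. 3 of 4 members were called lower in HCT116 and none higher, beside 36.8% and 38.1% of 16932 tested genes. MT2A still differed by -2.40 (SE 0.0815, edgeR adjusted p = 2.0e-19) and MT1F by -1.53 (SE 0.283, edgeR adjusted p = 2.8e-05). MT1X differed by 0.08, with a 95% interval of -0.32 to 0.49. MT1E was called lower in HCT116, by -0.25 (SE 0.0649, edgeR adjusted p = 0.0012), although its libraries overlapped at 157 ± 13.2 and 154 ± 15.0 CPM. That MT1E call depended on scaling: the log2 fold change was -0.07 with upper-quartile factors, -0.02 with library size alone and -0.18 with all 18 libraries in 1 fit, and none of these passed the threshold (adjusted p = 0.33, 0.76 and 0.23).

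In the 4 tested members the mixed cultures resembled HCT116 monocultures without irradiation. 0 of 4 members were called in either direction by edgeR, 0 by DESeq2 and 0 at an unadjusted p under 0.05, beside 0.887% of 16455 genes called higher and 1.15% called lower. These shares rest on 146 and 189 genes, which became 68 and 77 without mixed NIR replicate 1 and 77 and 101 without HCT116 NIR replicate 2, and 125 were called lower without HCT116 NIR replicate 3. The 95% intervals for mixed against HCT116 NIR were -0.35 to 0.25 for MT2A, -0.22 to 0.43 for MT1E, -0.51 to 0.31 for MT1X and -0.25 to 0.87 for MT1F. The cultures differed in other genes: 7 of 10 basal mammary markers were called higher in mixed NIR and none lower (median 1.31). TGFBI stood at 31.2 ± 3.40 CPM in mixed NIR and had no count in HCT116 NIR.

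After irradiation the mixed cultures held less of the abundant members than HCT116 alone. Of 4 members 2 were called lower and none higher, beside 3.48% and 5.08% of 17137 genes. The 596 genes called lower became 299 without mixed IR replicate 2 and 328 without mixed IR replicate 3, and the 871 called higher became 567 without mixed IR replicate 2. MT1E stood at 122 ± 5.52 CPM in mixed IR against 154 ± 15.0 CPM in HCT116 IR, a log2 fold change of -0.35 (SE 0.0617, edgeR adjusted p = 2.6e-04) without overlap. With all 18 libraries in 1 fit this call was lost (-0.32, adjusted p = 0.18). MT2A stood at 235 ± 8.88 against 287 ± 54.5 CPM, a log2 fold change of -0.30 (SE 0.0777, edgeR adjusted p = 0.014) with overlapping libraries. That call was lost without HCT116 IR replicate 1 (-0.14), mixed IR replicate 2 (-0.28) or mixed IR replicate 3 (-0.27), with DESeq2 (adjusted p = 0.34) and with all 18 libraries in 1 fit (-0.27, adjusted p = 0.31). Neither call was made in that last fit. MT1X (-0.11) and MT1F (-0.61) were not called. In the same comparison 7 of 10 basal mammary markers were called higher and none lower (median 1.00), KRT6A by 2.94 among them, and TGFBI stood at 124 ± 13.5 CPM in mixed IR against 0.234 ± 0.0824 CPM in HCT116 IR. Their part in the result was not tested.

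Within the mixed cultures irradiation was followed by 2 rises and 1 fall among 4 members, beside 24.0% of 16906 genes called higher and 25.4% called lower. MT1E rose from 78.8 ± 10.9 to 122 ± 5.52 CPM (SD, n = 3), a log2 fold change of 0.61 (SE 0.0773, edgeR adjusted p = 1.2e-06). MT2A rose from 202 ± 20.2 to 235 ± 8.88 CPM, a log2 fold change of 0.19 (SE 0.0665, edgeR adjusted p = 0.02). MT1F fell from 2.61 ± 0.772 to 0.889 ± 0.485 CPM, a log2 fold change of -1.58 (SE 0.359, edgeR adjusted p = 9.3e-04), on 262 counts in NIR and 97 in IR. The NIR and IR libraries did not overlap for these 3 genes, but the share of all genes without overlap was not counted. The MT2A rise was lost without mixed NIR replicate 1 (0.10), mixed IR replicate 1 (0.15) or mixed IR replicate 2 (0.20), and with all 18 libraries in 1 fit (0.23, adjusted p = 0.18). MT1X had 4.87 ± 1.24 and 5.54 ± 0.766 CPM and was not called (0.15, edgeR adjusted p = 0.53). All 10 basal mammary markers were called higher in the same comparison (median 1.59), their sum going from 644 to 755 CPM up to 1574 to 1855 CPM, and their part in the result was not tested.

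No member's irradiation response in mixed cultures differed from that in HCT116 at the threshold, with 0 of 4 called by edgeR, 0 by DESeq2 and 1, MT1E, at an unadjusted p under 0.05. Of 18072 genes 0.681% were called more positive and 0.149% more negative. The nearest was MT1E, whose log2 response was 0.45 smaller in the mixture (95% interval of the difference -0.84 to -0.05, edgeR adjusted p = 0.35). Without HCT116 NIR replicate 3 this difference was -0.79 and was called (adjusted p = 0.0026). The difference was -0.92 for MT1F (95% interval -1.87 to 0.03, edgeR adjusted p = 0.45), -0.25 for MT2A (95% interval -0.64 to 0.15, edgeR adjusted p = 0.68) and -0.01 for MT1X (95% interval -0.59 to 0.56, edgeR adjusted p = 0.99). Leaving out 1 library at a time, the number of all genes called more positive ranged from 48 (without mixed NIR replicate 1) to 137, against 123 with all libraries. The 2 irradiation comparisons share no libraries, while both mixed against HCT116 comparisons use the same HCT116 libraries as the HCT116 irradiation response.

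The mixed levels were also set against weighted sums of the separate lines. Genes specific to 1 line put the MCF10A part of the counted RNA at 0.420% ± 0.0685 (SD, n = 3) in mixed NIR and 1.23% ± 0.0511 in mixed IR. The share rests on medians over genes, and its SD covers the spread between libraries but not between genes. TGFBI, 1 of these genes, stood at 31.2 ± 3.40 CPM in mixed NIR and 2555 ± 197 CPM in MCF10A NIR. KRT5, which was not 1 of them, stood at 0.724 ± 0.206 and 2883 ± 133 CPM. The MCF10A share is one of RNA, and it takes the line-specific genes to keep their monoculture levels in the mixture. Fewer cells of a line, less RNA per cell and other levels of those genes in the mixture cannot be told apart. With this share, the weighted sum for MT2A was 219 CPM in NIR and 300 CPM in IR, of which MCF10A supplied 3.98% and 5.31%. For MT1E it was 75.3 CPM in NIR and 155 CPM in IR. The observed NIR levels were 0.815 to 1.00 of the weighted sum for MT2A and 0.956 to 1.22 for MT1E. The observed IR levels were 0.768 to 0.820 of it for MT2A and 0.762 to 0.830 for MT1E, so all 3 libraries lay below it. With equal shares of RNA the MT2A sums would have been 1143 CPM in NIR and 792 CPM in IR, far above any mixed library. The weighted sums carry the spread of the monocultures, and no test was made on them.

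**Figure D4:**
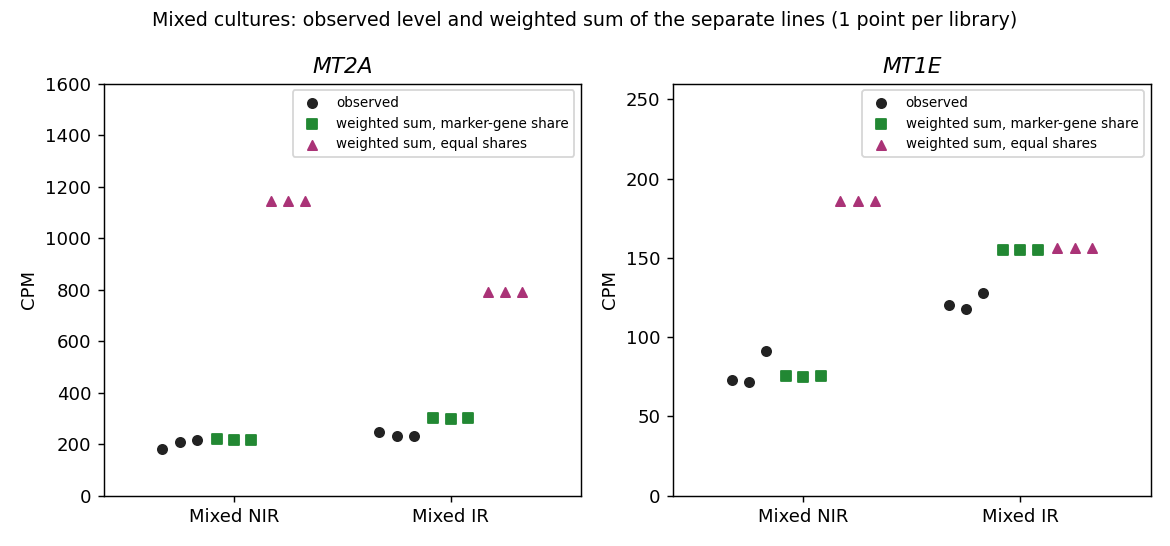
MT2A and MT1E in the mixed cultures (vertical axes in CPM, from 0): observed level in each library (black circles), weighted sum of the separate lines with the share from line-specific genes (green squares) and with equal shares (purple triangles). The observed points lie near the green squares without irradiation and below them after it, with MT2A observed at 180 to 246 CPM.

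MTF1 and the zinc exporters did not fall with the members in irradiated MCF10A. MTF1 stood at 55.5 ± 1.72 CPM in MCF10A NIR and 56.1 ± 0.724 CPM in MCF10A IR (SD, n = 3), with no called change (log2 fold change -0.01, edgeR adjusted p = 0.94). In HCT116 it rose from 46.3 ± 4.50 to 60.7 ± 0.961 CPM (0.40, edgeR adjusted p = 1.4e-04) and in mixed cultures from 46.1 ± 2.18 to 61.0 ± 3.00 CPM (0.38, edgeR adjusted p = 1.3e-04). Of MTF1 and the zinc exporters, 3 of 7 tested genes rose and none fell in irradiated MCF10A, with a median log2 fold change of 0.04 beside 0.00 for all genes. SLC30A4 and SLC30A7, which move zinc into vesicles and the secretory pathway, rose there by 0.65 (edgeR adjusted p = 8.3e-06) and 0.36 (edgeR adjusted p = 3.8e-06). SLC30A1 stood at 220 ± 13.8 CPM in MCF10A NIR and 242 ± 4.68 CPM in MCF10A IR (0.11, edgeR adjusted p = 0.034). The part of MTF1 in the members' changes was not tested.

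In irradiated HCT116, 4 of 8 genes of that list rose and 2 fell (median 0.17, beside 0.01 for all genes), and in irradiated mixed cultures 3 rose and 2 fell (median 0.09). SLC30A1, the zinc exporter of the plasma membrane, rose from 46.0 ± 6.69 to 71.1 ± 3.13 CPM in HCT116 (0.64, edgeR adjusted p = 9.4e-07) and from 47.3 ± 1.93 to 74.3 ± 4.63 CPM in mixed cultures (0.62, edgeR adjusted p = 1.9e-07). SLC30A3, a vesicular zinc transporter, fell by 0.95 in HCT116 (edgeR adjusted p = 1.3e-07) and by 0.86 in mixed cultures (edgeR adjusted p = 6.0e-08). Between the untreated lines 5 of 8 were lower in HCT116 and 1 was higher. SLC30A1 was lower, at 46.0 ± 6.69 against 220 ± 13.8 CPM in MCF10A (-2.45, edgeR adjusted p = 8.8e-15), SLC30A3 was higher, at 24.5 ± 2.12 against 0.114 ± 0.197 CPM, and MTF1 differed by -0.45 (edgeR adjusted p = 4.2e-05).

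Zinc importers of the SLC39 family were mixed in direction. 4 of 11 rose and 2 fell in MCF10A, 4 of 12 rose and 2 fell in HCT116, and 5 of 12 rose and 2 fell in mixed cultures, with medians of 0.07, 0.08 and 0.06. SLC39A13 rose by 1.07 and SLC39A4 fell by 0.51 in MCF10A (edgeR adjusted p = 2.0e-12 and 5.6e-04), and SLC39A10 and SLC39A8 fell by 0.69 and 0.43 in HCT116 (4.0e-09 and 2.5e-04). In mixed cultures SLC39A4 rose by 0.54 (edgeR adjusted p = 8.4e-06) and SLC39A8 fell by 0.43 (edgeR adjusted p = 1.0e-04). SLC39A8, which also carries cadmium, differed most between the untreated lines, at 273 ± 22.1 CPM in MCF10A and 46.2 ± 4.04 CPM in HCT116 (-2.76, edgeR adjusted p = 3.8e-16), while SLC39A11 was higher in HCT116 (2.19, edgeR adjusted p = 9.2e-13). In that comparison 4 of 12 importers were higher and 5 lower (median -0.21, beside 0.05 for all genes).

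Copper handling genes likewise moved in both directions. 3 of 11 rose and 4 fell in MCF10A (median -0.03), 3 of 11 rose and 1 fell in HCT116 (median 0.13), and 3 of 11 rose and 2 fell in mixed cultures (median 0.04). ATP7A and ATP7B, the copper-exporting ATPases, rose in MCF10A by 0.77 (edgeR adjusted p = 4.6e-08) and 0.67 (edgeR adjusted p = 3.2e-07). ATOX1, the copper chaperone that serves them, rose in HCT116 from 15.7 ± 0.228 to 41.0 ± 3.36 CPM (1.40, edgeR adjusted p = 2.1e-11) and in mixed cultures from 17.0 ± 4.15 to 40.3 ± 1.92 CPM (1.23, edgeR adjusted p = 3.0e-08). SCO1, a chaperone for cytochrome c oxidase, rose by 0.43 in HCT116 (edgeR adjusted p = 1.8e-05), and CCS, the copper chaperone for superoxide dismutase, by 0.46 in mixed cultures (edgeR adjusted p = 5.0e-04). Between the untreated lines 4 of 11 were higher and 4 lower in HCT116, ATP7A by 1.33 (edgeR adjusted p = 1.4e-10) and ATOX1 by -1.08 (edgeR adjusted p = 1.3e-08).

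Among 10 metal and oxidant stress genes, which respond to cadmium or to oxidants, 3 rose and 5 fell in MCF10A, and 2 rose and 4 fell in both HCT116 and mixed cultures. Their medians were -0.13, -0.00 and 0.04. SLC7A11, which imports cystine for glutathione synthesis, fell by 0.41 in MCF10A (edgeR adjusted p = 4.6e-06), by 1.55 in HCT116 (edgeR adjusted p = 6.2e-12) and by 0.70 in mixed cultures (edgeR adjusted p = 2.4e-04). GCLM, a subunit of the enzyme that starts glutathione synthesis, fell by 0.41 in MCF10A (edgeR adjusted p = 3.2e-07). NQO1, a quinone reductase, fell from 521 ± 36.2 to 231 ± 13.2 CPM in HCT116 (-1.17, edgeR adjusted p = 3.8e-13). HMOX1, which degrades heme, rose from 13.6 ± 0.245 to 21.3 ± 1.75 CPM in mixed cultures (0.62, edgeR adjusted p = 2.1e-05). These 3 genes were called in the same direction in the other cultures too. GCLM changed by -0.58 in HCT116 and -0.27 in mixed cultures, and NQO1 by -0.12 in MCF10A and -0.56 in mixed cultures. HMOX1 changed by 0.83 in HCT116 and by 1.46 in MCF10A, where its NIR level was only 1.51 ± 0.423 CPM. Between the untreated lines 4 were higher and 4 lower in HCT116, HMOX1 by 2.68 (edgeR adjusted p = 8.4e-09) and the heat shock gene HSPA1A by -6.42 (edgeR adjusted p = 8.3e-17).

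Glucocorticoid-responsive genes had the lowest median of these lists in each irradiation comparison. In irradiated MCF10A 4 of 12 rose and 7 fell (median -0.30), in HCT116 1 of 11 rose and 6 fell (median -0.42), and in mixed cultures 1 of 11 rose and 6 fell (median -0.31). In MCF10A, TFCP2L1 fell from 173 ± 10.8 to 81.6 ± 3.63 CPM (-1.11, edgeR adjusted p = 1.8e-16), while SGK1, a kinase, rose from 26.8 ± 0.575 to 61.9 ± 2.62 CPM (1.19, edgeR adjusted p = 1.2e-14). In HCT116 the clock gene PER1 fell by 1.36 (edgeR adjusted p = 5.8e-11) and TSC22D3, known as GILZ, by 1.26 (edgeR adjusted p = 7.5e-06). In mixed cultures they fell by 0.86 (edgeR adjusted p = 7.8e-07) and 0.84 (edgeR adjusted p = 0.0019). The part of glucocorticoid signalling in the members' changes was not tested.

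Between the untreated lines 10 of 12 glucocorticoid-responsive genes were lower in HCT116 and 2 were higher, with a median of -2.31 beside 0.05 for all genes. DUSP1, a MAP kinase phosphatase, stood at 238 ± 10.2 CPM in MCF10A and 6.67 ± 0.756 CPM in HCT116 (-5.34, edgeR adjusted p = 1.4e-19). ZBTB16 stood at 52.7 ± 3.89 CPM in MCF10A and had no count in HCT116 NIR. MT2A, itself known to respond to glucocorticoids, thus stood higher in the line grown with hydrocortisone, as did most of the list. Line, p53 loss, medium and GFP label cannot be told apart here.

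Genes whose levels followed the members over the 6 groups were sought among 10911 genes, by the root mean square difference of centred log2(CPM + 1) group means. For MT2A the closest were CEBPD, a transcription factor (0.101), and TGM1, a transglutaminase of keratinocytes (0.104). CEBPD stood at 30.9 and 15.6 CPM in MCF10A NIR and IR, at 1.98 and 2.80 CPM in HCT116 NIR and IR, and at 1.98 and 2.02 CPM in the mixed groups. For MT1X the closest were LYAR (0.0795) and UTP20 (0.0975), both nucleolar proteins. For MT1E they were SERPINH1, a collagen chaperone (0.219), and TFB2M, a mitochondrial transcription factor (0.220), less alike than the neighbours of the other members. Between members the differences were 0.422 for MT1E and MT1X, 0.473 for MT1F and MT1X, and 0.640 for MT1E and MT1F. With MT2A they were 0.854 for MT1E, 0.991 for MT1F and 1.13 for MT1X. The genes named above were picked as the closest of 10911, so their smaller differences follow from the choice and cannot be set against those of member pairs. Adding 1 CPM also damps differences between low levels, such as those of CEBPD and MT1F. The 6 group means are few, and many genes share the difference between the lines.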

How the data were processed

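Raw counts per gene symbol were deposited by the authors as 1 table per library. Per the submitters' processing notes, reads were handled with fastp, STAR and featureCounts on GRCh38. Tool versions, annotation and the treatment of reads that map to several genes are not given in the sources used here. Low counts were mostly even (68.3% of values from 1 to 10), so fits with counts halved were tried.

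Groups came from the sample titles. Each comparison used edgeR 4.0.16 in R 4.3.3 (TMM, filterByExpr, quasi-likelihood test, 2-sided) on the libraries compared, with Benjamini-Hochberg adjustment over all tested genes, and called means an adjusted p under 0.05. The response differences used the 4 groups concerned. SE is the log2 fold change divided by the root of F, and 95% intervals are ± 1.96 SE. With so few libraries these intervals are somewhat too narrow. For MT1F in irradiated HCT116 the interval was -1.28 to -0.02, although the unadjusted edgeR p was 0.055. CPM uses library totals. Line-specific genes had at least 20 CPM in a line and stayed below 1 CPM in all libraries of the other. Positions and transcript lengths came from GENCODE v29, promoters from RefSeq. The fits were tested on simulated data. DESeq2 1.42.0 was an alternative.

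All 6 members are named in every comparison in which they were tested. From each list of related genes, 2 called genes with the largest change and at least 10 CPM in the higher group are named, and MTF1 always. The per-library values of SLC30A1 and MTF1 in HCT116, and the single markers, were picked after values were seen. The members and lists were chosen with earlier results of these data known. Libraries were not paired by replicate number: over the 15 pairs of groups, the mean residual correlation of same-numbered libraries was -0.035 to 0.076. A replicate block still raised the genes called in mixed against HCT116 cultures, from 146 to 319 higher without irradiation. After irradiation they went from 871 to 1263 higher. In the other comparisons the block lowered the numbers called. No batch is labelled. A check of 1 label is not reported here. A p-value measures the spread between these cultures only.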

Additional observations from a re-analysis of the deposited data

Results flagged for a closer look

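3 members responded to irradiation differently in the 2 lines by a direct test of the difference. The HCT116 response minus the MCF10A response was 1.93 for MT1E, 1.45 for MT1X and 1.07 for MT2A on the log2 scale. For MT1E the responses had opposite directions, with a fall in MCF10A and a rise in HCT116. MT2A fell in MCF10A, but its rise in HCT116 (0.45) ranged from 0.23 to 0.74 when 1 library was left out, was called in 3 of those 6 fits and was not called by DESeq2 (adjusted p = 0.29). For MT1X only the fall in MCF10A was called. Line, p53 loss, medium and GFP label cannot be told apart in these differences.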

How the results depend on the processing

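Of 588 refits of single members, 547 kept direction and side of the threshold; other settings gave 311 of 324 and leaving out 1 library 236 of 264. The falls of MT2A, MT1E and MT1X in MCF10A, the rise of MT1E in HCT116 and mixed cultures, the fall of MT1F in mixed cultures, the 4 differences between untreated lines and the 3 response differences between the lines were called under every setting tried. In HCT116 the count of members called higher after irradiation was 1 with DESeq2 and 1 to 2 when 1 library was left out. In mixed cultures it was 1 with all 18 libraries in 1 fit and 1 to 2 when 1 library was left out. In irradiated mixed cultures against HCT116, 1 member was called lower with DESeq2, 0 with all 18 libraries in 1 fit and 1 to 2 when 1 library was left out. For the mixed minus HCT116 response, 1 member (MT1E, -0.45, adjusted p = 6.5e-04) was called lower without a count filter, and 0 to 1 when 1 library was left out. The cause was not tested for these changes. With the share fixed at 0.5 the weighted sums became 1143 and 792 CPM for MT2A in mixed NIR and IR and 186 CPM for MT1E in mixed NIR.

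19 uncalled values changed sign. Leaving out 1 library at a time, MT1X ranged from -0.011 to 0.37 in irradiated HCT116, from -0.11 to 0.28 between the irradiated lines and from -0.32 to 0.076 in irradiated mixed cultures against HCT116. In untreated mixed cultures against HCT116 the ranges were -0.12 to 0.42 for MT1E, -0.33 to 0.058 for MT1X and -0.26 to 0.25 for MT2A. The HCT116 minus MCF10A difference of MT1F ranged from -0.33 to 0.053. The mixed minus HCT116 difference of MT1X ranged from -0.23 to 0.19, and became 0.01 with library size alone, 0.0015 with all 18 libraries and 0.0065 with the replicate block.

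The replicate block changed no member's call; MT1E in irradiated HCT116 was 1.12 (adjusted p = 1.2e-08). Higher calls made up 47.4% of calls in irradiated MCF10A and 57.5% with upper-quartile factors; between the irradiated lines they made up 50.9%, and 62.4% with library size alone. The block raised the genes called in untreated mixed against HCT116 cultures from 146 to 319 higher and from 189 to 397 lower, and those called lower after irradiation from 596 to 957. Leaving out 1 library gave 68 to 144 higher and 77 to 179 lower in the untreated comparison, 299 to 537 lower after irradiation, and 48 to 137 higher and 12 to 60 lower for the mixed minus HCT116 response. In the untreated comparison, 308 and 363 were called without a filter, 275 higher with DESeq2 and 490 higher with all 18 libraries, which gave 261 called lower after irradiation (80.5% of calls higher, against 59.4%). For the mixed minus HCT116 response, 253 and 83 against 123 and 27 were called without a filter, and 113 lower with DESeq2. Depth limits MT1F most, with 97 counts in irradiated mixed cultures.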
